A study of Mus musculus with 2 samples.

Results

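The 10 genes described here carry bone morphogenetic protein (BMP) signalling in mouse embryonic stem cells or belong to the Id family that it induces. They are the ligand Bmp4, the type I receptor Bmpr1a, the Smads Smad1, Smad5, Smad6 and Smad7, and Id1, Id2, Id3 and Id4. They were chosen by gene symbol and not by a cutoff on their values, though with earlier results of these data known. All 10 have a row among the 14500 gene symbols of the table. RNA was sequenced from 46C cells, a mouse embryonic stem cell line with green fluorescent protein in the Sox1 locus, at passages 21-24, grown on gelatin in serum medium with LIF. By title, PB is the library of cells with the empty vector, and PB-Gbx2 is that of cells whose vector overexpresses the homeobox factor Gbx2. There was 1 library per vector, so no value has a replicate error, no test between the vectors was possible, and every difference is between 2 libraries. The headers of both columns of levels also carry the mark P3, which is not interpreted here. The source names in the labels give the vectors the other way round. Gbx2 itself stood at 345 in PB and 1178 in PB-Gbx2, which goes with the titles. If the source names were right, every direction below would turn around.

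BMP ligands bind type I and type II receptor kinases, which phosphorylate Smad1 and Smad5. These enter the nucleus with Smad4 and switch on target genes, among them the Id genes and the inhibitory Smads Smad6 and Smad7. Id proteins have a helix-loop-helix domain without a DNA-binding region and hold E proteins away from DNA. In serum culture, BMP acts beside LIF, and Id proteins are known to block neural differentiation of these cells.

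A level is the authors' normalized value, a rounded whole number and not a read count. Both libraries hold the same set of 14501 sorted values, with a median of 388 and a top of 70328, and depth is unknown. A log2 ratio is that of PB-Gbx2 over PB on log2(level + 1), which understates changes of low levels, and a fold is the plain ratio of levels. A gene is called where this log2 ratio reaches 1 or -1, a 2-fold difference. The genes were also divided by mean level into 20 groups of 725, and each ratio is set beside the 5th to 95th percentile of its group, called here the range of similar genes. Markers of pluripotent cells went with the label of the cells: all 9 had a row, and their levels lay between 3430 and 26878. Their summed level was 86005 in PB and 116454 in PB-Gbx2. Nanog (8918 and 19872) and Zfp42 (8320 and 16671) were called higher, and the other 7 were within 2-fold. The bulk libraries cannot tell fewer expressing cells from less RNA per cell.

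Of the 10 genes, Id4 alone was called, and it was higher in PB-Gbx2. None was called lower. Of all genes, 5.14% were called higher and 5.26% lower, or 10.4% in either direction, so 1 call in 10 genes is near that background. The median log2 ratio of the 10 genes was 0.16, and that of all genes was 0.00. The median size of the ratio regardless of sign was 0.20, against 0.27 over all genes. Apart from Id4, the ligand, receptor, Smads and Id genes each differed by less than 1.5-fold between the libraries, as did most genes: 11.6% were at least 1.5-fold higher and 12.2% lower, or 23.8% in all. In the authors' deposited table, each of the 10 has an adjusted p of 1, and the lowest unadjusted p is 0.0874, that of Id4. Those p-values rest on 1 library per group.

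**Figure D1:**
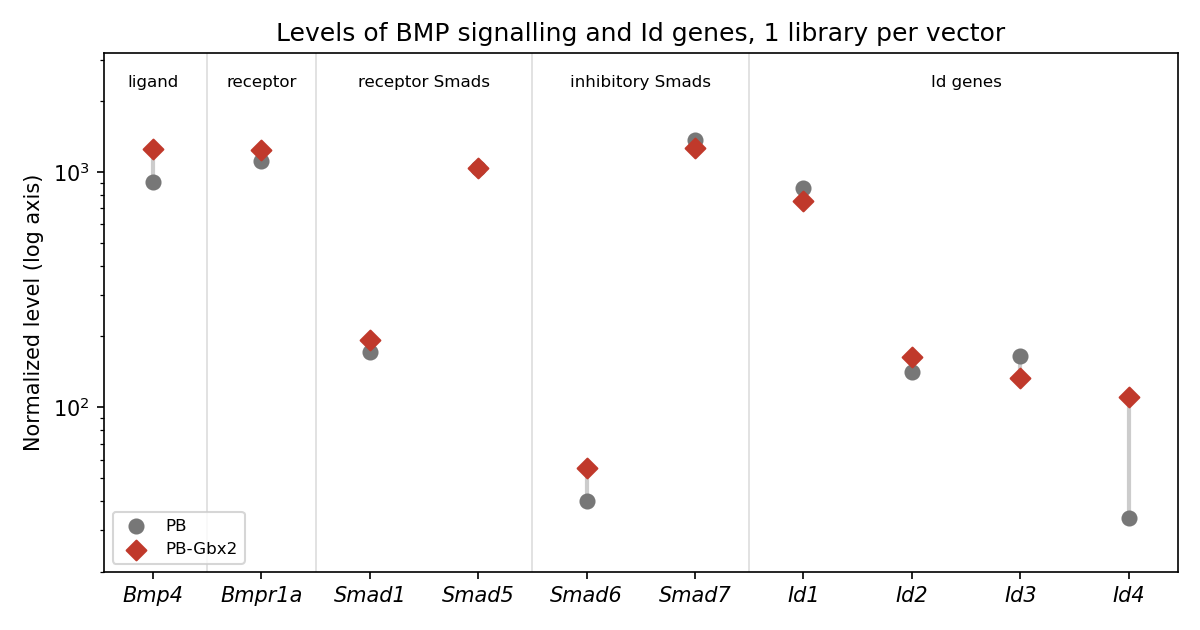
Normalized level (vertical log axis) of each of the 10 genes in the PB library (grey circles) and the PB-Gbx2 library (red diamonds), grouped by role, with a line joining the pair. The pair of Id4 lies far apart, at 34 and 111, while the pairs of the other genes lie close together, that of Smad5 at 1044 and 1038.

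Among the Id genes, the paralogs differed in direction. Id1 stood at 854 in PB and 749 in PB-Gbx2. That is 1.14-fold lower in PB-Gbx2, and the log2 ratio of -0.19 lay inside the range of similar genes, from -0.59 to 0.49. Id1 is the classical readout of BMP in many cell types, and here it was at or above 69.0% of genes in PB and 65.6% in PB-Gbx2. Id2 stood at 142 in PB and 164 in PB-Gbx2, 1.15-fold higher, and 70.5% of genes of similar level had a ratio at least as far from 0. Id3 stood at 166 and 133, 1.25-fold lower, and 56.7% of genes of similar level lay at least as far out. Id1 and Id3 were thus a little lower and Id2 a little higher in PB-Gbx2, each within the scatter of genes of similar level.

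Id4, whose product can also bind the other Id proteins, was the called paralog. It stood at 34 in PB and 111 in PB-Gbx2, a 3.26-fold difference with a log2 ratio of 1.68. The range of similar genes runs from -1.42 to 1.44, and 49 of the 725 genes, or 6.76%, lay at least as far from 0. In that group of levels 21.2% of genes were called in either direction, so a difference past 2-fold is common there. In GENCODE M21, exons of 2 genes on the opposite strand, A330033J07Rik and Gm49291, overlap those of Id4. Neither has a row in the table, and whether counting used the strand is not given in the sources used here, so their reads cannot be told apart from those of Id4. Id4 is also expressed in neural precursors. Of the 8 neural markers listed, 4 had a row, and their summed level was 1856 in PB and 1669 in PB-Gbx2. Sox1 went from 10 to 56 and Nes from 405 to 733, while Tubb3 went from 1248 to 756 and Map2 from 193 to 124. Pax6, Neurog2 and Zic1 are among those with no row. The part of neural cells in the level of Id4 was not tested.

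To compare paralogs, each level was divided by the length in kb of the longest GENCODE M21 transcript of the gene. This assumes that the authors did not divide by length, and across the 14160 genes with a length, Spearman's rho of length and level was 0.22. Per kb, Id1 stood at 736 in PB and 646 in PB-Gbx2, Id3 at 130 and 104, Id2 at 72.1 and 83.3, and Id4 at 8.83 and 28.8. The order Id1, Id3, Id2, Id4 held in both libraries and with both other measures of length that were tried. Id1 made up 77.7% of the summed Id level per kb in PB and 74.9% in PB-Gbx2, and Id4 0.933% and 3.35%. The summed level per kb was 947 in PB and 862 in PB-Gbx2. So the called difference of Id4 sits in the smallest share of the family, and with no replicate it cannot be said whether the neighbours Id3 and Id2 differ beyond their spread.

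**Figure D2:**
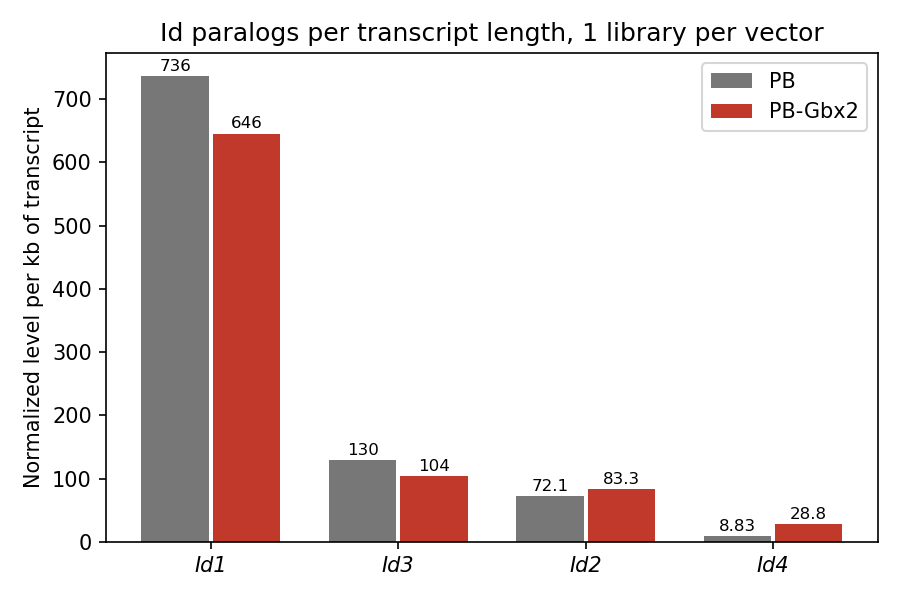
Normalized level per kb of the longest transcript (vertical axis, from 0) for the 4 Id paralogs in the PB library (grey bars) and the PB-Gbx2 library (red bars), with 1 library per bar and no error bar. Id1 stands at 736 and 646, far above Id3, Id2 and Id4, which is the lowest at 8.83 and 28.8.

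The stretch before the start of Id4 is shown because Id4 is the called member, and a stretch before the start of Id2 as that of a paralog within 2-fold. Both come from the RefSeq promoter table of build GRCm38.p6, which matched 8 of the 10 genes, all but Id1 and Smad7. That build is not the authors' mm9. For Id4 the 250 bases before the start are given, at chr13:48260866-48261115 on the + strand. For Id2 they are the 89 bases of that window before its first annotated exon, at chr12:25096254-25096342 on the - strand. Capitals mark each match to GGCGCC, a GC-rich element that Smad1 and Smad5 bind, or to CAGNTG, an E-box form that bHLH factors bind.
Id4: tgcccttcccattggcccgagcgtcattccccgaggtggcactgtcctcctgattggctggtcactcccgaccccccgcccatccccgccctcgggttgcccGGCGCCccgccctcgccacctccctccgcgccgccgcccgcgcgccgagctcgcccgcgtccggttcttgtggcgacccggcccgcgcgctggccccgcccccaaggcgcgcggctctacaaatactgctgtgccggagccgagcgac
Id2: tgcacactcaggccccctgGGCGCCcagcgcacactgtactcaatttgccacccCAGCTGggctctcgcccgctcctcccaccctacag
GGCGCC was found once in each of the 2 sequences, 148 bases before the start of Id4 and 231 bases before that of Id2, and CAGNTG once in that of Id2. The 8 matched genes have 10 windows of 250 bases before a start, since Smad5 has 3 starts in the table. GGCGCC was also found for Bmpr1a and in 1 window of Smad5, so 4 of these 10 windows hold it, beside 9.59% of all 32851 windows. The window of Id4 is 75.6% G or C and that of Id2 62.8%, and the median of all windows is 52.4%. The Smad box GTCTG was found for Id3 and in 1 window of Smad5 (42.2% of all windows) and CAGNTG for Id2 and Bmp4 (44.8%). The homeodomain cores TAATTA (4.84% of windows) and TAATTG (7.17%) were in none of the windows of the 8 genes. Both strands were searched. GGCGCC is the same on both strands, and none of the motifs contains another. So the motif present before Id4 was also present before Id2, Bmpr1a and Smad5, whose levels were within 2-fold.

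The ligand Bmp4, which stem cells make themselves, stood at 902 in PB and 1246 in PB-Gbx2, 1.38-fold higher. Its log2 ratio of 0.47 lay inside the range of similar genes, from -0.59 to 0.56, and 15.0% of them lay at least as far out. That share was the smallest of the 10 genes after Id4. Exons of Gm15217, on the opposite strand and without a row, overlap those of Bmp4. Of the 14 listed BMP ligands, 5 had a row, of which Bmp2 was called higher and Bmp8b lower. Bmp7, a ligand of the same receptors, stood at 176 and 302, a log2 ratio of 0.776. That lay just past the range of similar genes, from -0.867 to 0.775, and 11.9% of them lay at least as far out. Bmp2, the closest relative of Bmp4, stood at 3 and 18, a log2 ratio of 2.25. That lay just past the wide range of similar genes, from -2.07 to 2.24, and 9.24% of them lay at least as far out. Bmp8b stood at 105 and 34, a log2 ratio of -1.60. Its range of similar genes runs from -1.42 to 1.44, 7.59% of them lay at least as far out, and 21.2% were called. The remaining ligand, Bmp8a, a close relative of Bmp8b, stood at 27 and 14. Reads may be split between these 2 neighbouring and similar genes. The median over the 5 ligands was 0.47, against 0.00 for all genes.

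The type I receptor Bmpr1a stood at 1109 in PB and 1238 in PB-Gbx2, 1.12-fold higher, and 55.0% of genes of similar level lay at least as far out. Exons of Gm17110, on the opposite strand and without a row, overlap those of Bmpr1a. Per kb it stood at 186 and 208, while Bmpr2, the type II receptor, stood at 39.2 and 35.7. Without division by length, the level of Bmpr2 was 506 in PB and 460 in PB-Gbx2. The other type I receptors, Acvr1 (104 and 105) and Acvrl1 (193 and 194), had almost the same level in both libraries. The activin type II receptors, which also take up BMPs, stood at 214 and 250 for Acvr2a and at 291 and 242 for Acvr2b. Bmpr1b was not analysed here, as it has no row. The receptor kinases with a row thus differed by at most 1.20-fold, the value of Acvr2b.

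Of the co-receptors, Eng was called. Eng, or endoglin, a co-receptor for BMP and TGF-beta ligands, stood at 494 in PB and 1374 in PB-Gbx2, 2.78-fold higher. Its log2 ratio was 1.47, and 0.690% of genes of similar level lay at least as far out, the smallest such share among the listed pathway genes. In the authors' deposited table its adjusted p is 0.0582. Rgmb, a co-receptor anchored to the membrane, stood at 80 and 116, and the remaining co-receptor, Rgma, at 24 and 45. Both lay inside the range of similar genes, of which 38.8% for Rgmb and 34.6% for Rgma lay at least as far out. Of the 9 receptors and co-receptors with a row, Eng alone was called, beside 10.4% of all genes called in either direction. The list's median was 0.16. Eng is also a marker of endothelial and blood-forming cells. Of 12 such markers, listed after the level of Eng was seen, 7 had a row, with a summed level of 2482 in PB and 2320 in PB-Gbx2. Most of that sum came from Pecam1 (1834 and 1736), and Kdr was not in this list. Tek (120 and 244) was called higher and the other 6 were lower in PB-Gbx2, within 2-fold, while Cdh5, Emcn, Etv2, Tal1 and Lmo2 have no row. Of 8 mesoderm markers, 4 had a row, and their summed level went from 176 to 483. Among them, Kdr, which also marks endothelial cells, stood at 24 and 226. Eomes stood at 128 and 215, T at 6 and 24, and Tbx6 at 18 in both libraries. Mixl1, Mesp1, Msgn1 and Hand1 have no row. The part of such cells in the level of Eng was not tested.

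**Figure D3:**
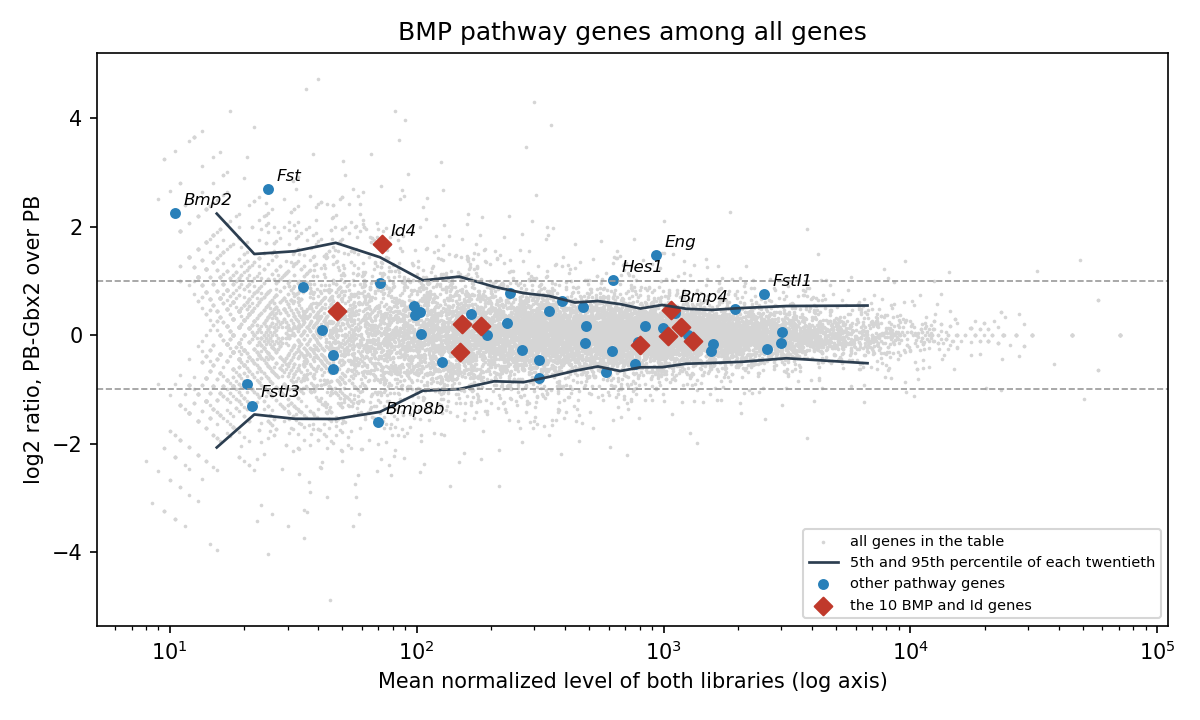
Log2 ratio of PB-Gbx2 over PB (vertical axis) against the mean normalized level of both libraries (horizontal log axis) for all 14500 genes (grey), the listed pathway genes (blue) and the 10 BMP and Id genes (red diamonds), with dashed lines at 2-fold and dark lines at the 5th and 95th percentile of each of 20 level groups. Id4 lies just above the upper line at a low level, Eng lies far above it at a higher level, and the other diamonds lie between the lines.

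The Smads that carry the signal were nearly level between the libraries. Smad5 stood at 1044 in PB and 1038 in PB-Gbx2, the smallest difference of the 10 genes, and 97.9% of genes of similar level lay at least as far from 0. Exons of Gm27301, annotated as a miscellaneous RNA on the same strand without a row, overlap those of Smad5, and their reads cannot be told apart. Smad1 stood at 172 and 193, 1.12-fold higher in PB-Gbx2. Per kb, Smad5 stood at 159 and 158 and Smad1 at 45.6 and 51.1. Smad5 thus made up 77.7% of their sum in PB and 75.5% in PB-Gbx2. Their shared partner Smad4 stood at 945 and 1039, and Smad9 has no row. Of the Smads of the Nodal and TGF-beta branch, Smad2 stood at 460 and 514 and Smad3 at 305 and 474, log2 ratios of 0.16 and 0.63. The ratio of Smad3 lay outside the range of similar genes, from -0.66 to 0.60, while those of Smad1 and Smad5 lay inside theirs. This difference between the branches was not tested.

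The inhibitory Smads block the receptors or compete with the signalling Smads, and BMP induces both as feedback. Smad7, which also restrains the Nodal and TGF-beta branch, stood at 1363 in PB and 1268 in PB-Gbx2, 1.07-fold lower. Smad6, the form more selective for BMP, stood at 40 and 55, 1.38-fold higher, and 57.8% of genes of similar level lay at least as far out. Per kb, Smad7 stood at 319 and 296 and Smad6 at 13.5 and 18.5, so Smad7 made up 95.9% and 94.1% of their sum. Both inhibitory Smads were within the range of similar genes.

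Of 12 listed inhibitors that act in the cell or at the receptor, none was called. Of all genes, 10.4% were called in either direction, so no call in 12 genes is not far from that background. In the level groups of these inhibitors, the share called ran from 1.10% for Fkbp1a to 25.4% for Smad6. The log2 ratios of the 12 inhibitors lay between -0.52 and 0.52, with a median of 0.08, and 6 were above and 6 below 0. The pseudo-receptor Bambi stood at 144 and 188. The ubiquitin ligases that mark Smads and receptors stood at 792 and 888 for Smurf1, at 818 and 752 for Smurf2, and at 902 and 627 for Nedd4l. The Smad co-repressors stood at 1623 and 2257 for Ski and at 1706 and 1396 for Skil. Tob1 (958 and 1270) and Tob2 (388 and 557), which bind Smads and dampen BMP signals, were both higher in PB-Gbx2, within 2-fold. The phosphatase Ppm1a (1255 and 1250) and Fkbp1a (3151 and 2851), which keeps type I receptors silent, differed by at most 1.11-fold.

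Secreted antagonists and modulators were sparse, with a row for 8 of 21. Fst, or follistatin, which binds activins and some BMPs, stood at 6 and 44 and was called higher. Fstl3, its relative, stood at 31 and 12 and was called lower. Both have the same range of similar genes, from -1.46 to 1.49, and 24.4% of that group were called. The log2 ratio of Fst, 2.68, lay outside that range, and that of Fstl3, -1.30, lay inside it. Fstl1, a secreted glycoprotein related to follistatin, stood at 1892 and 3204. Its log2 ratio was 0.76, outside the range of similar genes from -0.43 to 0.54. Chordin (Chrd), which traps BMPs, stood at 88 and 119, and Bmp1, a protease that cleaves chordin, at 86 and 111. Twsg1, a partner of chordin, stood at 1672 and 1494, and Kcp, a chordin-like modulator, at 397 and 230. The log2 ratio of Kcp was -0.78, just outside the range of similar genes from -0.77 to 0.72. The remaining gene stood at 48 and 94. Noggin (Nog), Grem1 and Cer1 are among the 13 that have no row. The levels that are called in this list are low, whereas Fstl1 was 1.69-fold higher in PB-Gbx2 at a high level. Kcp was 1.73-fold lower.

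**Figure D4:**
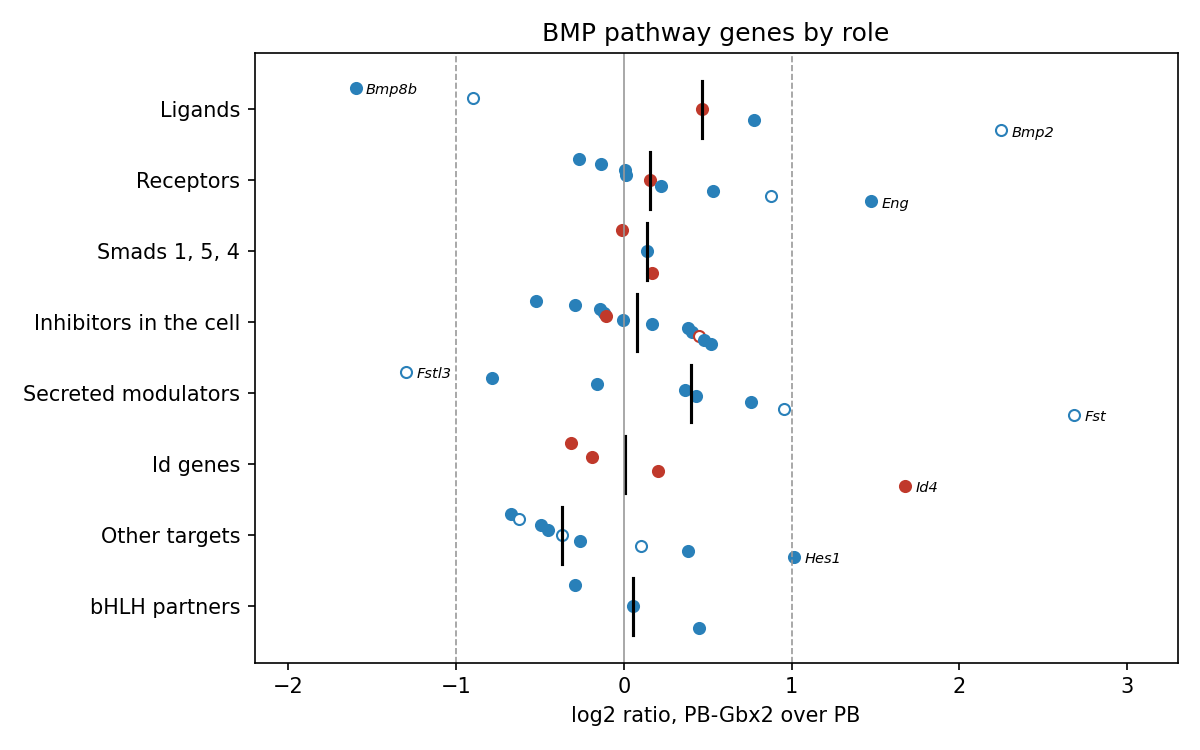
Log2 ratio of PB-Gbx2 over PB (horizontal axis) of the listed genes with a row, by role (vertical axis), with red for the 10 BMP and Id genes and blue for the others, filled where the level reached 100 in either library and open where it did not. Black bars are list medians and dashed lines mark 2-fold: Eng, Hes1 and Id4 are filled points to the right of 1, Bmp8b is a filled point to the left of -1, and Bmp2, Fst and Fstl3 are open.

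Of 16 listed BMP targets outside the Id family and the inhibitory Smads, 9 had a row, and 1 of these was called. The median log2 ratio was -0.37, with 3 above 0 and 6 below, beside 7136 above and 7096 below among all genes, and none of the 6 was called lower. Hes1, a bHLH repressor that Notch also induces, was called higher, from 414 to 838, and 3.59% of genes of similar level lay at least as far out. Junb, an AP-1 subunit, stood at 718 and 450, a log2 ratio of -0.67, outside the range of similar genes from -0.58 to 0.63. Dusp9, an ERK phosphatase that BMP induces in stem cells, stood at 2868 and 2390, 1.20-fold lower. Hey1, a repressor related to Hes1, stood at 148 and 105, and Zfp423, a Smad partner, at 362 and 264. The other 3, besides Bambi, stayed below a level of 100. Hes1 was thus the sole called target of this list. At 1 call in 9 genes, the list is near the 10.4% of all genes called in either direction.

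The E proteins, which Id proteins hold away from DNA, differed little. Tcf3, which encodes E2A and is listed apart from Tcf7l1, stood at 2952 and 3069, Tcf4 at 682 and 556 and Tcf12 at 290 and 396. None was called. Over all 54 listed pathway genes with a row, the 10 included, 5 were called higher and 2 lower, and the median log2 ratio was 0.12. At the same threshold, 5.14% of all genes were called higher and 5.26% lower, or 10.4% in either direction. With calls limited to levels of at least 100 in either library, Id4, Eng and Hes1 were called higher and Bmp8b lower. Of all 10941 genes that reach this level, 2.46% were called higher and 2.37% lower, or 4.83% in either direction. How many of the 54 reach it was not counted, so these calls cannot be given as a share.

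Of markers of other cells, fibroblast genes had a row for 5 of 10. Their summed level was 3331 in PB and 2452 in PB-Gbx2. Col1a1 (132 and 36) was called lower. Vim (1698 and 1420), Thy1 (866 and 492) and Pdgfrb (626 and 486) were lower within 2-fold, while Col1a2 was higher, at 9 and 18. Col3a1, Dcn, Lum, Postn and S100a4 have no row. Primitive endoderm markers had a row for 5 of 8, with a sum of 1654 and 2415, most of it from Lama1. Gata4 stood at 36 and 68 and Gata6 at 18 and 45, while Sox17, Sox7 and Foxa2 have no row. Trophectoderm markers had a row for 5 of 9, and their median log2 ratio was -1.14. Krt7 (43 and 4), Krt8 (532 and 225) and Krt18 (363 and 164) were called lower, while Tfap2c stood at 1441 and 2439 and Eomes at 128 and 215. Their summed level was 2507 in PB and 3047 in PB-Gbx2, most of it from Tfap2c, and Cdx2, Elf5, Gata3 and Hand1 have no row. Their part in the levels of the BMP and Id genes was not tested.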

How the data were processed

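Total RNA of 2 cultures, 1 per vector, was sequenced. Per the submitters' processing notes, STAR and the mouse build mm9 were used. The sources used here do not give their versions, the annotation or the counting tool. Levels are normalized scores deposited by the authors as whole numbers. Both columns hold the same sorted values, as after quantile normalization, so they were not treated as read counts. The deposited table also holds the authors' ratio of PB over PB-Gbx2, its log2 value, and their p-value and adjusted p-value.

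The 2 rows that share a symbol were summed, which left 14500 symbols. The log2 ratio used a pseudocount of 1 and a minimum level of 1, and calls needed a 2-fold difference. No test between the vectors was run, as each group has 1 library. The members and gene lists were chosen with earlier results of these data known. Named with both levels were Gbx2, the 10 genes, and each listed pathway gene that reached a level of 100 or was called. Markers, and the genes Bmp8a and Rgma, were named beyond this rule, after their values were seen, and no gene was named for a similar pattern. Lengths came from GENCODE M21, for 97.7% of symbols. Alternatives were pseudocounts of 0.1 and 5, 2 rescalings, minimum levels of 100, 200 or none, a 1.5-fold threshold and other lengths. The calling code was run on a simulated pair of libraries, with set changes in genes at a mean level of at least 100 and counting noise only. This checks the code. It does not cover spread between cultures, or Id4, whose mean level is below 100. Python 3.11.15, numpy 2.4.6, pandas 2.3.3, scipy 1.17.1 and matplotlib 3.10.9 were used. All columns of per-sample values belong to the 2 libraries.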

Additional observations from a re-analysis of the deposited data

How the results depend on the processing

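Id4 stayed the sole called gene of the 10 under both other pseudocounts, both rescalings, minimum levels of 100 or none and the 1.5-fold threshold. With a minimum of 200, added once the data had been seen, 0 of the 10 genes were called, because Id4 does not reach it. Of the listed pathway genes, 5 higher and 2 lower were called. With a minimum of 100 these were 3 and 1, with 200 they were 2 and 0, and with the 1.5-fold threshold 10 and 6. How many pathway genes reach a level of 100 or 200 was not counted. The share of all genes called with a minimum of 200 was not computed, so the counts at 200 have no background. Over all genes, 746 higher (5.14%) and 762 lower (5.26%) were called. These became 269 (2.46%) and 259 (2.37%) with a minimum of 100, and 1684 (11.6%) and 1770 (12.2%) with the 1.5-fold threshold. Both rescalings moved single ratios by at most 1.92e-05 and no row lies under the minimum level of 1, so these settings say nothing about stability. All 60 list medians under other settings moved by less than 1.5-fold, though that of the inhibitors was -0.01 in place of 0.08 with a minimum of 100. Of 216 results for single genes, that of Bmp2 alone moved by more, to a log2 ratio of 1.52 with a pseudocount of 5, and none changed sign.

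Levels per kb depend on the length used. With the median transcript length, which counts short fragments, the values in PB and PB-Gbx2 were 112 and 129 for Id2, 225 and 180 for Id3, 98.5 and 111 for Smad1, 352 and 349.97 for Smad5, 95.9 and 132 for Smad6, 1719 and 1599 for Smad7, 824 and 919 for Bmpr1a, and 107 and 97.5 for Bmpr2. With merged exons, Smad1 stood at 27.5 and 30.8. No identity between Id proteins was computed, as no protein sequences were used here. No paired analysis was possible because there is a single library per vector, which also means that none can be omitted in turn.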
